A study of Mus musculus with 32 samples.

Results

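The expression of 34 genes of the p53 pathway was followed across 32 RNA-seq libraries from the bone marrow of mice that lack the histone acetyltransferase HBO1 (gene Kat7) in blood-forming cells. The 34 genes were taken by name: Trp53, which encodes p53, the p53 inhibitors Mdm2 and Mdm4, and genes listed as p53 targets. Whether p53 activates each of them in these mouse cells was not tested. They are 34 of the 27179 genes in the count table, and all 34 passed the filter on low counts in every comparison. The libraries came from 16 adult C57BL/6 mice, each of which gave 1 library of LSK cells (lineage-negative, Sca-1-positive, Kit-positive cells, the fraction that holds the stem cells) and 1 of progenitor cells, both sorted by flow cytometry.

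Each cell population had 4 groups of 4 mice. CreER controls were Hbo1fl/+ mice with the RosaCreERT2 recombinase, and CreER knockouts were Hbo1fl/fl mice with the same recombinase. Both received tamoxifen, which activates this recombinase in every tissue that makes it. Mx1Cre controls were Hbo1fl/+ mice with the MX1-Cre recombinase, and Mx1Cre knockouts were Hbo1fl/fl mice with it. Both received PolyIC, a double-stranded RNA mimic that induces interferon, which in turn switches on the Mx1 promoter. Every control mouse therefore carried a recombinase, received a drug and, by its title, lost 1 allele of Hbo1, although the treatment notes call the controls wild type. Recombinase, drug and mice change together between the CreER and the Mx1Cre groups, so their parts in a difference between those groups cannot be told apart. The labels give neither the time after treatment nor the markers of the progenitor gate.

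p53 is a transcription factor that is held at a low level by MDM2, a ubiquitin ligase, and by its relative MDM4, and that accumulates after DNA damage and other stress. It binds a response element made of a pair of half-sites and activates genes that stop the cell cycle, repair DNA, change metabolism or start cell death, among them Mdm2 itself, which closes a feedback loop. In blood-forming stem cells p53 and its target p21, the product of Cdkn1a, are known for their part in quiescence and in the loss of cells after damage.

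The promoters of a few members show the kind of site through which p53 acts, and the sequences printed are from the 4 members with a match to a pair of half-sites. RefSeq promoter sequences (GRCm38.p6, the build of the count tables' mm10 annotation) from 250 bases before to 50 bases after each annotated start were found for 27 of the 34 members, in 37 windows. A p53 half-site with no mismatch to its consensus, which reads alike on both strands, occurred in 11 of the 37 windows (29.7%) and in 8.36% of all 32851 windows of the same length. The windows of Aen overlap, hold the same half-site and are both counted. A pair of half-sites with no mismatch and a spacer of at most 13 bases occurred in 1 window (2.7%, against 0.0731% of all windows), that of the upstream start of Cdkn1a. With up to 2 mismatches in the pair, the C and G of each core kept, 4 windows held a match (10.8%, against 4.09%): Cdkn1a, Ccng1, Sesn1 and Rps27l. The windows of Phlda3, Eda2r and Plk2, which differed widely between the lines, held no half-site without mismatch, and Sesn1 and Rps27l, which have a pair, did not pass the test between control lines in either population. Each match is one of letters, not a measured binding site. Below are the 250 bases before the Cdkn1a start (chr17:29090729-29090978, plus strand) and before the Ccng1 start (chr11:40755287-40755536, minus strand), with the half-sites of every such pair in capitals, overlapping ones merged.
Cdkn1a: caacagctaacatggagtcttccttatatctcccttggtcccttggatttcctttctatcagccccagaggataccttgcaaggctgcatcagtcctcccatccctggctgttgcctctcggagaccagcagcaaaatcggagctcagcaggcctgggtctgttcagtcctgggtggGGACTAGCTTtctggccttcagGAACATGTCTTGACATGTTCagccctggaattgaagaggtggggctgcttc
Ccng1: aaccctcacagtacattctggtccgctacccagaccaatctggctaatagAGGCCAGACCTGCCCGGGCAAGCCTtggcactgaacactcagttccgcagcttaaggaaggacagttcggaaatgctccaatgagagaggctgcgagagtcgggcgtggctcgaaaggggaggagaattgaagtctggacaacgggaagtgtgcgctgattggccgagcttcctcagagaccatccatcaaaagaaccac
The first capital in the Cdkn1a promoter lies 73 bases before this start and 2863 bases before the gene's second annotated start, whose own window held no match. In Ccng1 the pair with the fewest mismatches, 1, begins 195 bases before the start. The pairs of Rps27l (chr9:66946296-66946315, plus strand, 1 mismatch) and Sesn1 (chr10:41887253-41887275, plus strand, 2 mismatches) lie before a second start of each gene, inside an intron of the longer transcripts.
Rps27l: GGGCTTGTTGAGACTTGTCC
Sesn1: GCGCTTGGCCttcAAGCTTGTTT

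Total counts ran from 7275277 to 18409271 per library, with a median of 12207444. Kat7 was at 39.6 to 78 CPM (counts scaled to a common library total) in the controls and at 0 to 1.65 CPM in the knockouts, as the labels say. LSK and stem cell markers summed to 902 to 1720 CPM in the LSK libraries and to 433 to 681 CPM in the progenitor libraries, with all 8 detected. The LSK CreER knockouts 2 and 3 showed sex-linked genes against their labels, so the mouse each came from is in doubt. Both are knockouts of 1 group, so no comparison of groups changes its members through this, and the results that use them are also given without them where they differ. The progenitor Mx1Cre control 1 and knockout 4 stood apart in a trend of expression with exon length (slopes of -0.336 and -0.277 on the log2 scale, against -0.117 to 0.139 in the other 14 progenitor libraries).

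Per exon length, in RPKM (CPM per kilobase of exon), the members spanned a wide range in the controls. Rps27l, which encodes a ribosomal protein relative, had the highest mean, 164 RPKM in LSK and 252 RPKM in progenitor controls, and Trp53 came next with 120 and 127 RPKM. Eda2r, a death receptor of the TNF family, was lowest in LSK controls at 0.577 RPKM, and Gdf15, a secreted stress hormone, in progenitor controls at 0.817 RPKM. Reads of Rps27l can be shared with its close relative Rps27, and exons of Plk3, Ddb2, Rrm2b, Tigar and Ei24 overlap a gene on the opposite strand, so the counts of these 6 members are less certain. The heat map of all members shows how their levels fall into blocks by recombinase group, and in which genes they do not.

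**Figure D1:**
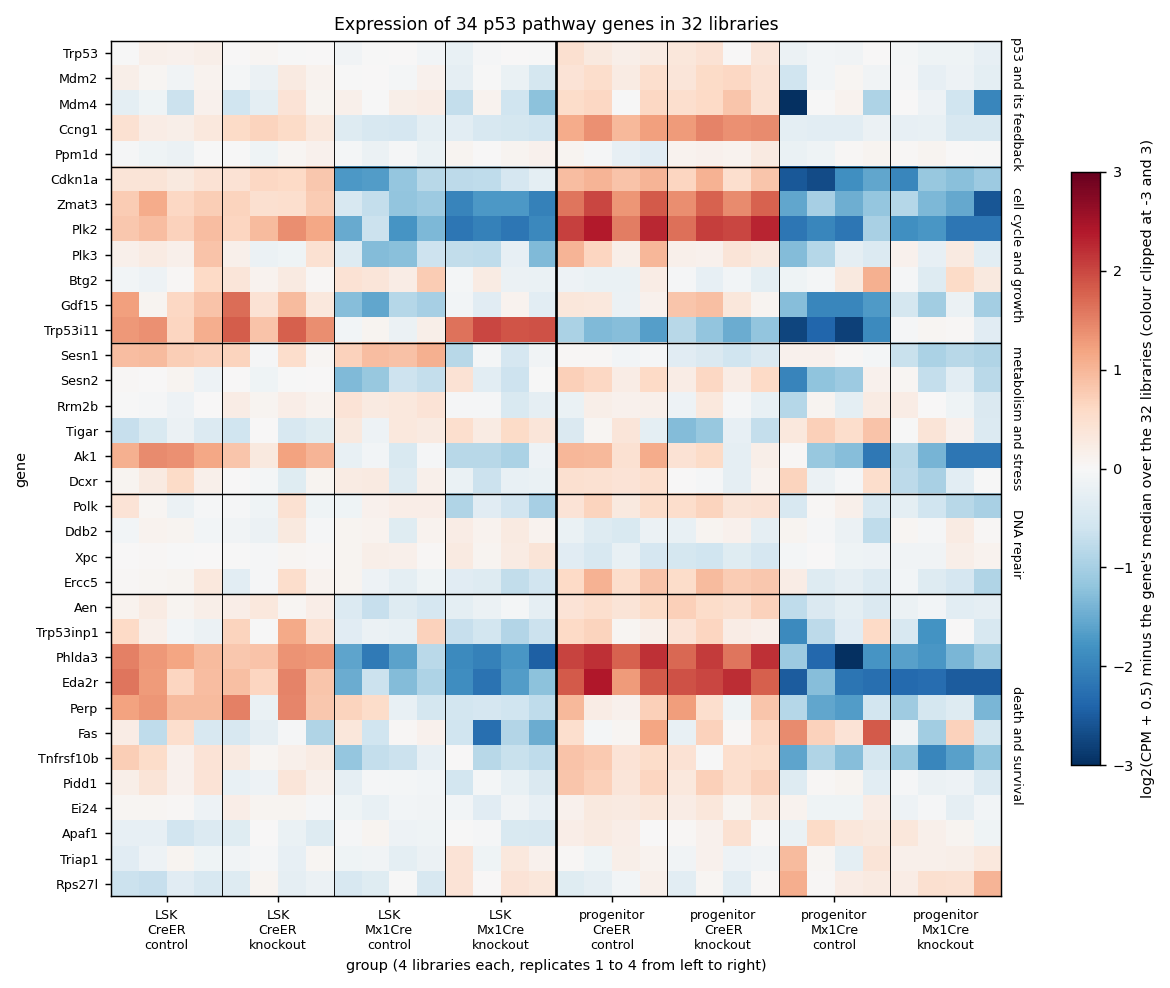
Levels of the 34 members (rows, by role) in the 32 libraries (columns, 4 per group), as log2(CPM + 0.5) minus the median of each gene over all libraries, with colours clipped at -3 and 3. Cdkn1a, Zmat3, Plk2, Phlda3 and Eda2r are low in the 16 Mx1Cre libraries and high in the 16 CreER libraries, and Trp53i11 is high in the LSK Mx1Cre knockouts.

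The design has controls under both recombinases, which allows the members to be compared between them with 1 Hbo1 allele still intact. Many p53 targets were lower in the Mx1Cre (PolyIC) controls than in the CreER (tamoxifen) controls, in LSK cells and in progenitors. The arrest gene Cdkn1a was 3.24-fold lower in LSK cells and 8.67-fold lower in progenitors, and Phlda3, an inhibitor of AKT, 7.31-fold and 18.1-fold lower. In LSK cells 14 members were lower and 2 higher at an adjusted p below 0.05 (edgeR quasi-likelihood test with Benjamini-Hochberg adjustment over all genes tested), where 9.99% of all genes were lower and 11.7% higher. In progenitors 19 were lower and 1 higher, where 11.0% of all genes were lower and 14.3% higher. The median difference over the 34 members was -0.16 on the log2 scale in LSK cells and -0.77 in progenitors, against 0 and 0.016 over all genes. The 4 Mx1Cre libraries all lay below the 4 CreER libraries for 15 members in LSK controls and 19 in progenitor controls, which held for 15.0% and 13.3% of all genes. Plk2 and Eda2r in both populations, and Gdf15 in progenitors, passed the filter on low counts only through the CreER groups. For them a lower Mx1Cre value was the only likely call, in these counts and in those of the knockouts below. The same mice gave both populations, so the 14 members lower in both are not 2 independent results.

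Among p53 and its feedback genes, Ccng1, which encodes cyclin G1, a partner of the phosphatase that acts on MDM2, stood out. In progenitors it was at 244, 291, 221 and 263 CPM in the CreER controls and at 91.9, 89.5, 90.5 and 99 CPM in the Mx1Cre controls. The groups lay far apart, at means of 255 ± 29.8 and 92.7 ± 4.28 CPM (SD, n = 4 each; log2 difference -1.45 ± 0.10 SE, adjusted p = 1.49e-06). In LSK cells the CreER controls had 154, 130, 127 and 140 CPM and the Mx1Cre controls 85.6, 79.9, 78.5 and 90.7 CPM, again without overlap (log2 difference -0.70 ± 0.09 SE, adjusted p = 5.12e-05). Trp53 itself was close between the lines: 236 ± 13.3 and 211 ± 6.75 CPM in LSK controls, which did not pass the test, and 269 ± 24.2 and 205 ± 10.7 CPM in progenitor controls, which did (log2 difference -0.38 ± 0.10 SE, adjusted p = 0.0104). Mdm2 was lower in progenitor Mx1Cre controls, at 64 ± 11.9 CPM against 96.7 ± 7.94 CPM (log2 difference -0.59 ± 0.12 SE, adjusted p = 0.00291). In LSK controls Mdm2 was at 72.9 ± 3.95 and 75 ± 6.06 CPM and did not pass. Mdm4 and Ppm1d, a phosphatase that switches p53 signalling off, passed the test in neither population.

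The cell cycle and growth genes moved together: 6 of 7 were lower in each population, all but Btg2, an antiproliferative gene. Cdkn1a, which encodes the cyclin-dependent kinase inhibitor p21, was at 48.6, 48.4, 45.5 and 50.1 CPM in the LSK CreER controls and at 10.8, 11.1, 16.1 and 20.6 CPM in the LSK Mx1Cre controls. In progenitors it was at 70.8, 75, 66.5 and 75.1 CPM against 5.86, 5.32, 9.89 and 12.2 CPM. Every Mx1Cre control lay below every CreER control in both populations. The log2 differences were -1.70 ± 0.17 SE (adjusted p = 3.34e-06) and -3.12 ± 0.25 SE (adjusted p = 3.47e-06). Zmat3, an RNA-binding splicing regulator and growth suppressor, was at 34.9, 46.2, 28.8 and 41.5 CPM in progenitor CreER controls and at 3.45, 5.41, 3.75 and 4.75 CPM in progenitor Mx1Cre controls (log2 difference -3.11 ± 0.28 SE, adjusted p = 5.98e-06). In LSK controls it went from 20.2 ± 3.09 to 6.05 ± 1.51 CPM (log2 difference -1.72 ± 0.17 SE, adjusted p = 2.99e-06).

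Plk2, a stress-induced polo-like kinase, was nearly absent from the progenitor Mx1Cre controls, with 8 counts in the 4 libraries together against 416 in the CreER controls. Per library it was at 8.85, 11.3, 6.04 and 10.3 CPM in the CreER controls and at 0, 0.0845, 0 and 0.652 CPM in the Mx1Cre controls. The ratio of the summed counts, scaled to library size, was 49.4 (95% exact interval 24.9 to 115, counting error only). In LSK cells the ratio was 8.05 (5.22 to 13), from 154 and 24 counts. Gdf15 was also at few counts, 5 in progenitor Mx1Cre controls against 77 in CreER controls, a ratio of 14.6 (6.01 to 46.4), and in LSK cells the ratio was 7.34 (4.54 to 12.5). Both genes passed the test in both populations. Plk3, a related kinase, fell 2.56-fold in LSK and 2.92-fold in progenitor controls, and Trp53i11, a p53-inducible gene of little known function, 2.17-fold and 2.41-fold (adjusted p = 0.00354, 0.000903, 0.000475 and 0.00196).

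**Figure D2:**
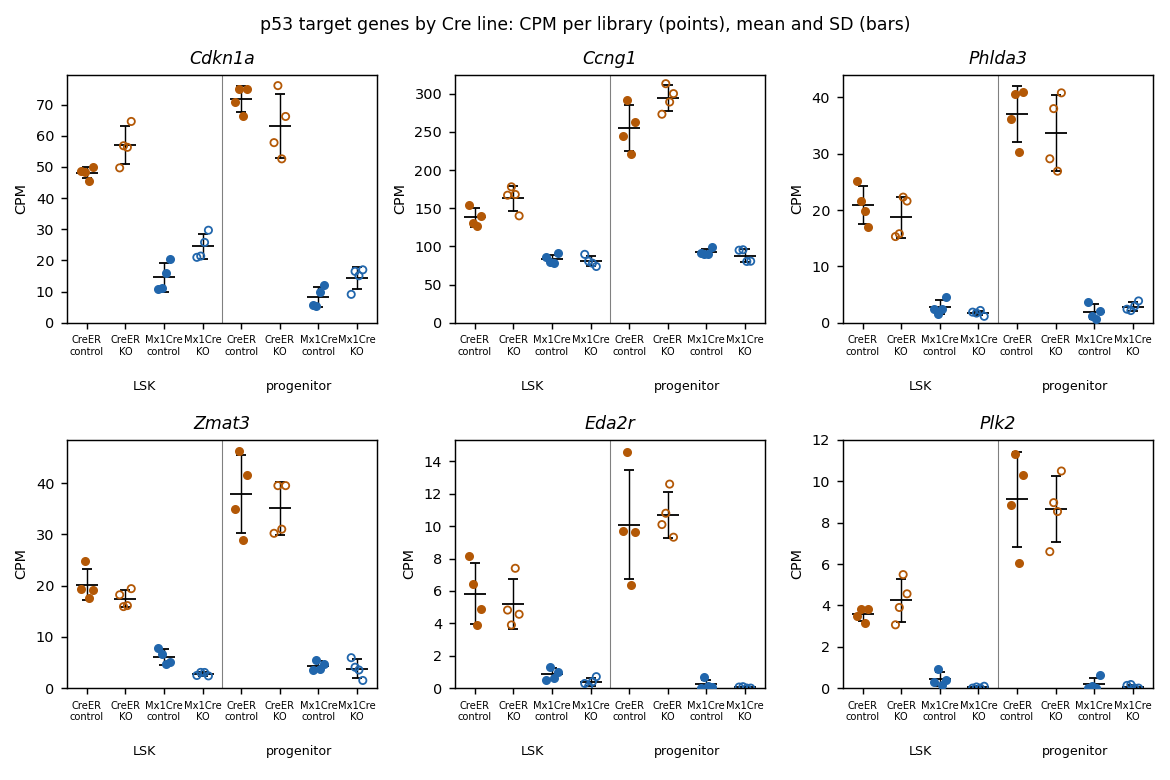
CPM of 6 members in each library (points; open for knockouts), with the mean (horizontal bar) and SD of each group, in LSK cells (left) and progenitors (right), for the CreER (brown) and Mx1Cre (blue) groups. In every panel each Mx1Cre library, control or knockout, lies below each CreER library of its population.

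The death and survival genes were split. The death receptors Eda2r and Tnfrsf10b, Phlda3, the nuclease Aen and Pidd1, which assembles the caspase-2 platform, were lower in the Mx1Cre controls of both populations. Phlda3 was at 36.2, 40.6, 30.3 and 40.9 CPM in progenitor CreER controls and at 3.75, 1.27, 0.626 and 2.14 CPM in Mx1Cre controls (log2 difference -4.18 ± 0.35 SE, adjusted p = 3.67e-06). In LSK cells it was at 25.1, 21.6, 19.8 and 17 CPM against 2.48, 1.57, 2.44 and 4.62 CPM (log2 difference -2.87 ± 0.26 SE, adjusted p = 9.16e-07). No Mx1Cre value came near the CreER range in either population. Eda2r was at 9.68, 14.6, 6.39 and 9.65 CPM in progenitor CreER controls against 0, 0.676, 0.125 and 0.0931 CPM, with 452 and 10 counts in all, a ratio of 43 (95% exact interval 23.2 to 90.2). In LSK controls the ratio for Eda2r was 6.54 (4.77 to 9.14), from 245 and 47 counts. Tnfrsf10b was 2.32-fold lower in LSK and 3.59-fold lower in progenitor controls, and Aen 1.55-fold and 1.92-fold (adjusted p = 0.00162, 0.000333, 6.47e-05 and 3.22e-05). Pidd1 was 1.29-fold lower in LSK controls, a call lost when any of 7 of the 8 libraries was left out (adjusted p up to 0.119), and 1.72-fold lower in progenitors (adjusted p = 0.000896). Perp, a desmosomal protein linked to p53-driven death, was 4.06-fold lower in progenitors (adjusted p = 0.00341), and its 1.99-fold difference in LSK cells did not pass (adjusted p = 0.0529). Fas, Apaf1, Ei24, Trp53inp1, Triap1 and Rps27l did not pass in either population. Rps27l was at 93.3 ± 15.8 CPM in progenitor CreER controls and at 141 ± 51 CPM in Mx1Cre controls, where library 1 had 216 CPM (adjusted p = 0.0577).

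Metabolic genes went both ways. Ak1, adenylate kinase, was lower in the Mx1Cre controls: 8.4, 10.9, 10.6 and 9.09 CPM against 3.14, 3.53, 2.6 and 3.63 CPM in LSK cells (log2 difference -1.57 ± 0.24 SE, adjusted p = 0.000165), and 4.1-fold lower in progenitors (adjusted p = 0.00755). Sesn2, a sestrin that restrains mTORC1 under stress, was 1.92-fold and 2.67-fold lower (adjusted p = 0.00223 and 0.00628), although the progenitor Mx1Cre control 4 had 23.9 CPM against 5.18 to 10 CPM in the other 3. In contrast Tigar, which lowers glycolytic flux, was higher in LSK Mx1Cre controls, at 26.8, 19.5, 27.4 and 26.4 CPM against 13.4, 15.8, 19.2 and 16.2 CPM (log2 difference 0.65 ± 0.15 SE, adjusted p = 0.00608). Rrm2b, a subunit of ribonucleotide reductase that supplies nucleotides for repair, was likewise higher in LSK Mx1Cre controls, 17.2 ± 0.908 against 12.9 ± 0.641 CPM (adjusted p = 0.0133). Sesn1, the sestrin most tied to p53, was at 78.4 ± 7.34 and 82.1 ± 8.55 CPM in LSK and at 43.5 ± 1.81 and 45.7 ± 2.56 CPM in progenitor controls of the CreER and Mx1Cre lines, with overlapping libraries. Dcxr, a sugar reductase, did not pass either.

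Of the 4 DNA repair members 2 were lower and 1 higher in progenitor controls, and none passed in LSK controls, where Polk was at 19.4 ± 3.54 and 19.8 ± 2.04 CPM. Ercc5, an endonuclease of nucleotide excision repair, was 1.95-fold lower (adjusted p = 0.00188) and Polk, a translesion polymerase, 1.59-fold lower (adjusted p = 0.0127) in progenitor Mx1Cre controls. Xpc, the damage sensor of the same repair pathway, was higher, at 112 ± 6.26 against 91.1 ± 8.34 CPM (adjusted p = 0.0443), a call lost without any of 7 of the 8 libraries (adjusted p up to 0.129). Ddb2, which recognises ultraviolet lesions, had overlapping libraries in both populations.

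The knockouts offered the same comparison in other mice, chosen after the control values had been seen. Of the 34 members 19 were lower and 3 higher in LSK Mx1Cre than in LSK CreER knockouts, where 14.7% of all genes were lower and 13.3% higher. In progenitor knockouts 18 were lower and 4 higher, where 10.8% and 12.8% of all genes were. The median differences were -0.42 and -0.70, against 0.002 and -0.015 over all genes, and 18 and 22 members had all Mx1Cre knockouts below all CreER knockouts (13.0% and 16.4% of all genes). The 16 members lower in both populations again come from the same mice. Phlda3 was at 15.3, 15.8, 22.3 and 21.6 CPM in LSK CreER knockouts and at 1.89, 1.72, 2.19 and 1.15 CPM in LSK Mx1Cre knockouts, with a wide gap (log2 difference -3.41 ± 0.27 SE, adjusted p = 8.5e-08). Cdkn1a was at 49.7, 56.8, 56.3 and 64.6 CPM against 21, 21.4, 25.8 and 29.7 CPM in LSK knockouts (log2 difference -1.21 ± 0.17 SE, adjusted p = 4.13e-05) and at 57.8, 76.1, 52.6 and 66.2 CPM against 9.12, 16.5, 15.1 and 17 CPM in progenitor knockouts (log2 difference -2.12 ± 0.24 SE, adjusted p = 4.18e-05). Neither population showed an overlap for Cdkn1a. Eda2r came to 2 counts in the progenitor Mx1Cre knockouts and 525 in the CreER knockouts, a ratio of 228 (95% exact interval 62.8 to 1890), and Plk2 to 4 and 423 counts, a ratio of 91.8 (35.6 to 338). Ccng1 was 2.01-fold lower in LSK and 3.3-fold lower in progenitor knockouts (adjusted p = 4.16e-07 and 1.39e-07). Trp53i11 departed from the control pattern: in progenitor knockouts it was higher in the Mx1Cre line, 15.5 ± 1.93 against 6.94 ± 1.45 CPM (adjusted p = 0.00275). Of the 22 calls in each population 15 in LSK cells and 18 in progenitors held without each library in turn.

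**Figure D3:**
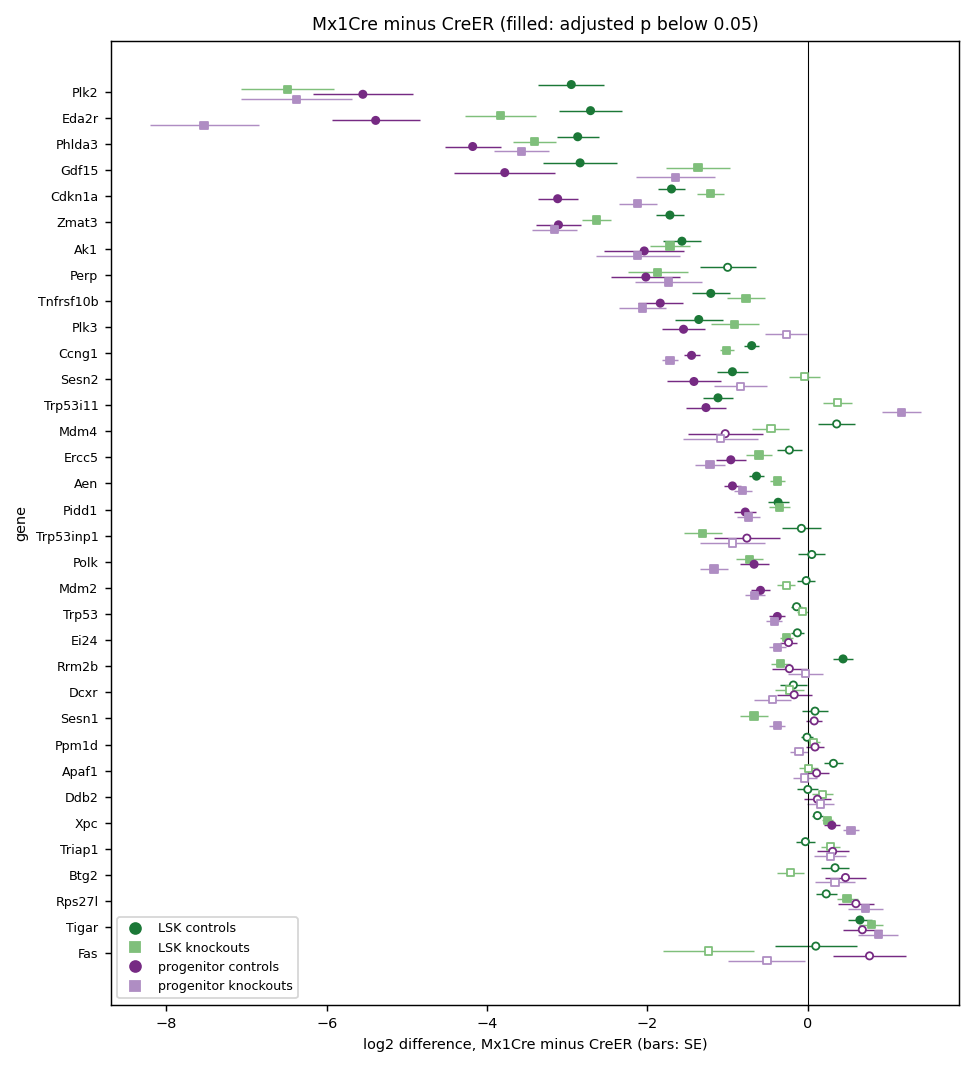
Log2 difference, Mx1Cre minus CreER, for each member with its SE (bars), in controls (circles) and knockouts (squares) of LSK cells (green) and progenitors (purple), ordered by the progenitor controls. Filled symbols passed the test. Fitted values of Plk2, Eda2r and Gdf15 depend on how the fit handles counts near 0. The members at the top are lower in all 4 contrasts, and Tigar and Xpc lie above 0 in all 4.

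A test of the gap itself between the populations, also chosen after seeing the control values, asked whether the Mx1Cre minus CreER difference in controls was smaller in LSK cells than in progenitors. It was for Ccng1 (difference of differences 0.74 ± 0.13 SE, adjusted p = 0.00343), Cdkn1a (1.41 ± 0.30 SE, adjusted p = 0.0174) and Zmat3 (1.38 ± 0.32 SE, adjusted p = 0.0277), and for no member in the other direction, with 1.11% of all genes called. The Zmat3 call was lost when any of 8 of the 16 libraries was left out (adjusted p up to 0.0868), and that of Cdkn1a without the LSK Mx1Cre control 4 (adjusted p = 0.0501) or with only the libraries of the compared groups in the fit (adjusted p = 0.0534). With the mouse as a block 5 members were called, Eda2r and Mdm2 in addition.

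Markers of other cells moved with the recombinase group too. Myeloid progenitor markers, 6 of 6 detected, summed to 4830 to 11000 CPM in LSK CreER controls and to 16800 to 21000 CPM in LSK Mx1Cre controls, and to 13500 to 25300 CPM against 34700 to 37700 CPM in progenitors. Mature neutrophil markers, 6 of 6 detected, summed to 40.1 to 79.4 CPM against 193 to 1070 CPM in LSK and to 140 to 286 CPM against 561 to 6920 CPM in progenitor controls. Macrophage markers, 4 or 5 of 5 detected, summed to 40.8 to 74.5 CPM against 153 to 240 CPM in LSK controls. In progenitor controls they summed to 52.6 to 122 CPM against 193 to 333 CPM. Most of these sums was Csf1r, with means of 44.1 against 171 CPM in LSK and 62.4 against 223 CPM in progenitor controls. The means of Adgre1 and Vcam1 were also higher in the Mx1Cre controls. Those of C1qa (0.707 against 0.347 CPM in LSK and 0.577 against 0.0233 CPM in progenitor controls) and C1qb were lower. C1qb went from 1.11 to 0.286 CPM in LSK controls and was at 0 in the progenitor Mx1Cre controls. Endothelial and stromal markers stayed at or below 2.49 CPM in all control groups. The part of these cells in the lower p53 target levels was not tested. In bulk samples fewer cells of a type and less RNA per cell cannot be told apart.

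Loss of HBO1 was the study's main question. In LSK cells, averaged over both lines, knockouts had more RNA of Trp53i11, Gdf15, Cdkn1a, Rps27l, Sesn2 and Aen and less of Plk2, Fas, Sesn1, Zmat3, Ak1, Polk and Dcxr. These 6 higher and 7 lower members compare with 13.5% of all genes higher and 14.3% lower, and the median over the members was -0.11 against 0.009. p53 and its feedback genes had none: Trp53 differed by -0.06 ± 0.05 SE on the log2 scale. The lower value of Plk2 came from the Mx1Cre line. In the CreER line Plk2 was at 3.47, 3.82, 3.14 and 3.82 CPM in controls and at 3.06, 3.9, 5.49 and 4.56 CPM in knockouts, which overlapped and did not pass (adjusted p = 0.758). Means in the CreER line also differed little for Sesn2 (21.8 to 21.4 CPM), Polk (19.4 to 19.2 CPM) and Aen (73.4 to 75.3 CPM). In the Mx1Cre line these went from 11.2 to 20.7, 19.8 to 11.4 and 46.6 to 57.4 CPM. The comparisons of knockout with control within each line reuse these libraries. Within the Mx1Cre line 7 members were higher and 9 lower, where 15.2% of all genes were higher and 15.9% lower, with a median of -0.18. Over both lines 7 of the 13 calls held without each library in turn, those of Aen, Ak1, Dcxr, Fas, Gdf15 and Sesn2 did not (adjusted p up to 0.128), and without the LSK Mx1Cre control 1 only 8 members were called. Within the CreER line none was called by edgeR, where 3.17% of all genes were, and 4 had an unadjusted p below 0.05 (Sesn1, Ccng1, Rps27l and Trp53i11). DESeq2 and limma-voom called none there either.

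Trp53i11 and Sesn1 had the lowest p-values of the 34 in LSK cells. Trp53i11 was at 15.2, 17, 14.3 and 18.3 CPM in the Mx1Cre controls and at 50.8, 66.3, 61.2 and 61.8 CPM in the Mx1Cre knockouts, with no overlap (log2 difference 1.89 ± 0.19 SE, adjusted p = 1.58e-06). In the CreER line it was at 40.4, 42.2, 25.3 and 34.9 CPM in controls and at 58.2, 29.5, 57.3 and 43.2 CPM in knockouts, which overlapped (log2 difference 0.40 ± 0.18 SE, adjusted p = 0.263). The difference between the lines passed its own test (1.48 ± 0.26 SE, adjusted p = 0.0031). Sesn1 was at 71, 84.1, 81.4 and 91.7 CPM in Mx1Cre controls against 24.4, 42.2, 30.9 and 40.4 CPM in knockouts (log2 difference -1.25 ± 0.17 SE, adjusted p = 3.87e-05). The CreER line gave 83.4, 85.8, 73.8 and 70.6 CPM in controls and 69.8, 42.7, 63.9 and 45.7 CPM in knockouts, which did not overlap but did not pass after adjustment (log2 difference -0.49 ± 0.17 SE, adjusted p = 0.115).

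The arrest gene Cdkn1a rose in LSK Mx1Cre knockouts to 24.5 ± 4.09 CPM from 14.6 ± 4.64 CPM (log2 difference 0.73 ± 0.17 SE, adjusted p = 0.00428), still below the 45.5 CPM of the lowest CreER control. Rps27l rose in the same comparison, from 72.4, 79.4, 101 and 73.4 CPM to 135, 103, 136 and 129 CPM (log2 difference 0.62 ± 0.13 SE, adjusted p = 0.00181). Rps27l has a short exon length, 464 bp, and the Mx1Cre knockouts 1, 3 and 4 had length slopes of -0.102, -0.142 and -0.153, against -0.0751 to 0.0989 in the other LSK libraries. With the length trend removed the Rps27l difference was 0.33 (adjusted p = 0.0207). Sesn2 rose 1.84-fold (adjusted p = 0.00287), Aen 1.23-fold (adjusted p = 0.0154) and Triap1, an inhibitor of apoptosome assembly, 1.29-fold (adjusted p = 0.0305). Gdf15 rose from 20 to 65 counts over the 4 libraries of each group, from 0.37 ± 0.182 to 1.24 ± 0.255 CPM (adjusted p = 0.0123). Some death and arrest genes went the other way. Zmat3 fell from 7.88, 6.67, 4.63 and 5.01 CPM to 2.46, 3.06, 3.05 and 2.38 CPM, with no overlap (log2 difference -1.13 ± 0.19 SE, adjusted p = 0.00028). Plk2 fell from 24 counts to 2, a ratio of controls to knockouts of 11.9 (95% exact interval 2.94 to 104), and Fas, the CD95 death receptor, from 118 to 31, a ratio of 3.76 (2.51 to 5.78). Polk was 1.74-fold lower, Rrm2b 1.48-fold, Trp53inp1, a stress-induced autophagy regulator, 1.69-fold, Mdm4 1.59-fold and Btg2 1.42-fold (adjusted p = 0.00273, 0.00178, 0.026, 0.0387 and 0.0292). Of the 16 calls 10 held without each library in turn, and those of Aen, Btg2, Fas, Mdm4, Triap1 and Trp53inp1 were each lost without 2 or more single libraries (adjusted p up to 0.129, for Mdm4 and Trp53inp1). With the length trend removed the calls of Triap1 and Trp53inp1 were lost (adjusted p up to 0.119).

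Besides Trp53i11, the LSK knockout difference was lower in the Mx1Cre than in the CreER line for Plk2 (-3.54 ± 0.80 SE, adjusted p = 0.0173), Rrm2b (-0.78 ± 0.17 SE, adjusted p = 0.0119), Zmat3 (-0.93 ± 0.25 SE, adjusted p = 0.0415) and Trp53inp1 (-1.23 ± 0.34 SE, adjusted p = 0.0484), 5 members in all where 4.37% of all genes were called. Only Trp53i11 and Rrm2b were called without each library in turn: Plk2 was lost without the Mx1Cre knockout 3 (adjusted p = 0.0527) and, with both CreER knockouts 2 and 3 left out, at an adjusted p of 0.0609. With the length trend removed Zmat3 and Trp53inp1 were lost (adjusted p up to 0.104). The number called was 3 without any of 9 single libraries and 9 without the Mx1Cre knockout 2. The remaining 29 members did not pass, which does not show that the lines respond alike. Erythroid markers moved with the LSK Mx1Cre knockouts, at 12 to 21.6 CPM against 22.5 to 88.3 CPM in their controls, as did B cell markers, at 14 to 27.1 against 28.4 to 46.8 CPM, and LSK and stem cell markers, at 902 to 1230 against 1230 to 1500 CPM. Neutrophil markers summed to 71.9 to 531 CPM in the LSK CreER knockouts against 40.1 to 79.4 CPM in their controls. In the LSK Mx1Cre line they summed to 445 to 1070 against 193 to 1070 CPM, and the ranges overlapped in both lines. The part of these cell types in the members' differences was not tested.

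**Figure D4:**
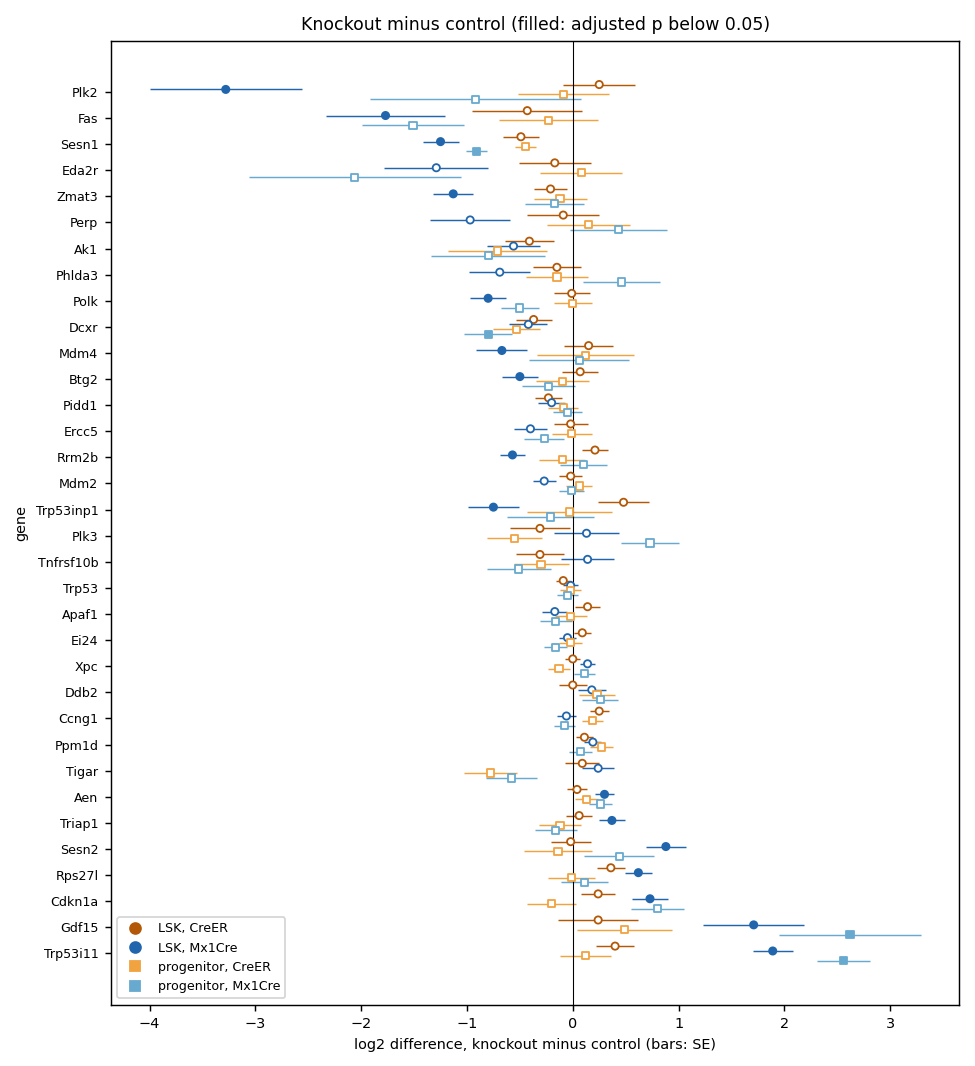
Log2 difference, knockout minus control, for each member with its SE (bars), in LSK cells (circles) and progenitors (squares) of the CreER (brown and orange) and Mx1Cre (blue) lines, ordered by the LSK value over both lines. Filled symbols passed the test: 16 in LSK Mx1Cre, 4 in progenitor Mx1Cre and 0 in either CreER contrast. Fitted values of Plk2, Eda2r, Gdf15 and Fas rest on few counts.

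In progenitors 5 members passed the test for HBO1 loss. With both lines together 2 were higher, Trp53i11 and Gdf15, and 3 lower, Sesn1, Dcxr and Tigar, where 2.28% of all genes were higher and 5.51% lower. The median over the members was -0.05 against -0.008. Within the Mx1Cre line Trp53i11, Gdf15, Sesn1 and Dcxr were called, where 6.08% of all genes were. Within the CreER line edgeR called none, where 0.168% of all genes were called, and 4 members had an unadjusted p below 0.05. DESeq2 called 1 there, Sesn1, and limma-voom none. Cdkn1a, at 8.32 ± 3.29 CPM in Mx1Cre controls and 14.4 ± 3.64 CPM in Mx1Cre knockouts, did not pass (adjusted p = 0.0712).

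Sesn1 had the tightest values. The CreER controls were at 44.6, 45.2, 41.2 and 43.1 CPM and the CreER knockouts at 34.6, 32.5, 28.8 and 32.6 CPM, and the Mx1Cre controls at 47.7, 47.7, 44.9 and 42.4 CPM and the Mx1Cre knockouts at 27.2, 22.6, 24.4 and 23.3 CPM. No knockout reached a control of its line. The log2 difference was -0.45 ± 0.10 SE in the CreER line (adjusted p = 0.0884), -0.91 ± 0.10 SE in the Mx1Cre line (adjusted p = 4.08e-05) and -0.68 ± 0.07 SE over both (adjusted p = 2.27e-05). Trp53i11 was at 8.1, 6.17, 6.3 and 4.78 CPM in CreER controls and at 8.88, 6.75, 5.37 and 6.76 CPM in CreER knockouts, which overlapped. In the Mx1Cre line it went from 1.95, 2.7, 1.88 and 3.91 CPM to 15.6, 16.9, 16.6 and 12.7 CPM (log2 difference 2.56 ± 0.25 SE, adjusted p = 1.4e-05). The lines differed by 2.44 ± 0.35 SE (adjusted p = 0.00306), the single member called for this where 0.299% of all genes were. Gdf15 rose from 5 to 32 counts in the Mx1Cre line, a ratio of controls to knockouts of 0.152 (95% exact interval 0.0462 to 0.393), a call lost when any of 5 of the 8 libraries was left out (adjusted p up to 0.0871). Dcxr was at 17.6, 17.3, 16.7 and 17.8 CPM in CreER controls and at 12.5, 12.2, 10.3 and 13.4 CPM in CreER knockouts, and at 15.3 ± 4.4 and 8.92 ± 2.84 CPM in the Mx1Cre line, where its call was lost without any of 5 single libraries (adjusted p up to 0.163). It passed over both lines (log2 difference -0.66 ± 0.16 SE, adjusted p = 0.0161). Tigar passed over both lines as well (-0.68 ± 0.17 SE, adjusted p = 0.0231), with 21.1 ± 5.5 to 12.4 ± 4.37 CPM in the CreER line and 33.8 ± 5.37 to 22.6 ± 5.14 CPM in the Mx1Cre line. The Tigar and Gdf15 calls over both lines were both lost without the progenitor CreER control 3, the Mx1Cre control 4 or the CreER knockout 2, which left 3 members called. Neutrophil markers summed to 1270 to 11500 CPM in the progenitor Mx1Cre knockouts against 561 to 6920 CPM in their controls, which overlapped. Other lists did not overlap there: myeloid progenitor markers summed to 24400 to 28000 CPM in the Mx1Cre knockouts against 34700 to 37700 CPM in their controls. Macrophage markers summed to 107 to 165 against 193 to 333 CPM and B cell markers to 7.36 to 12.7 against 28.2 to 46.8 CPM. Of the myeloid progenitor markers Ms4a3 (means of 709 to 856 CPM) and Cebpe (68.5 to 122 CPM) rose and the others fell. The macrophage sum was mostly Csf1r (223 to 99.5 CPM), and Vcam1 fell too, while Adgre1 rose (12.3 to 17.7 CPM). B cell markers were also lower in the progenitor CreER knockouts, at 9.47 to 12.6 against 15.3 to 27 CPM. The part of these cells in the members' differences was not tested.

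**Figure D5:**
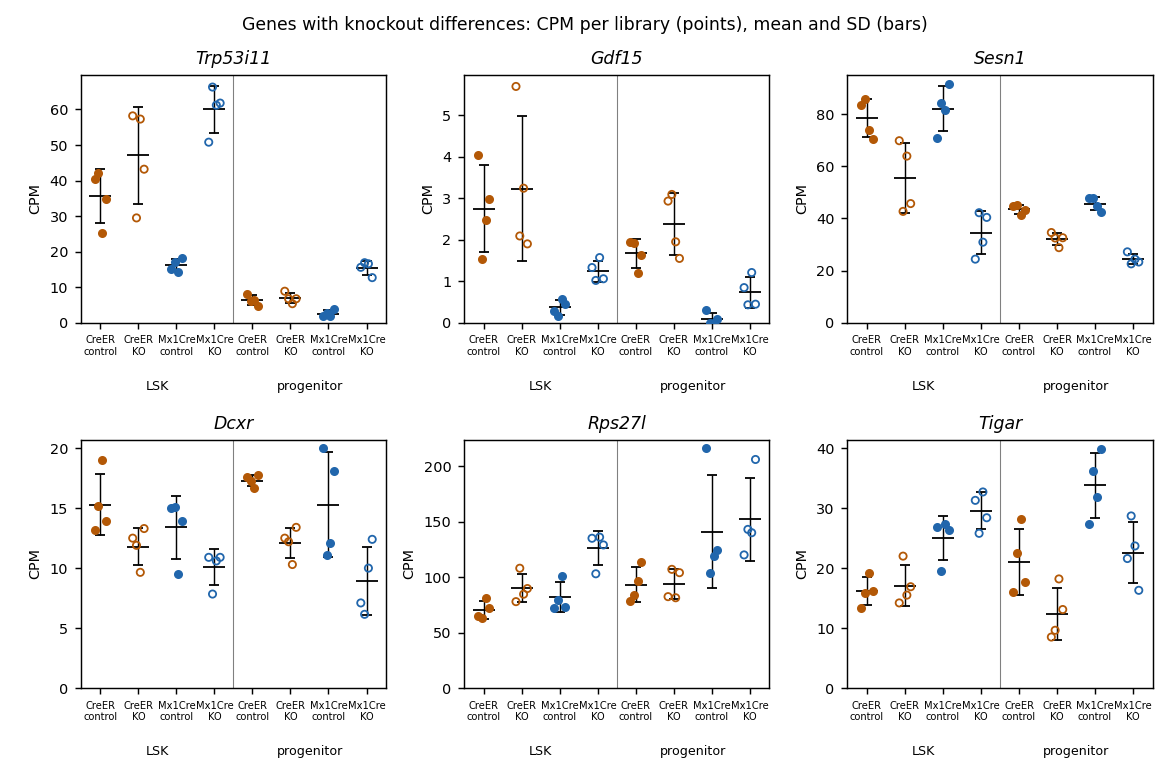
CPM of 6 members with a knockout difference, in each library (points; open for knockouts), with the mean (horizontal bar) and SD, in LSK cells (left) and progenitors (right), for the CreER (brown) and Mx1Cre (blue) groups. Sesn1 knockouts lie below the controls of their line in all 4 pairs, and Trp53i11 knockouts lie above the controls in the Mx1Cre line of both populations and overlap them in the CreER line.

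Between populations the knockout difference was tested directly and passed for Tigar alone, where 2.52% of all genes were called: it was lower by 0.68 in progenitors and differed little in LSK cells, 16.2 ± 2.39 to 17.1 ± 3.42 CPM in the CreER line and 25 ± 3.69 to 29.6 ± 3.07 CPM in the Mx1Cre line (LSK minus progenitor difference 0.83 ± 0.21 SE, adjusted p = 0.0274). This call was lost without the LSK CreER knockout 2, the progenitor CreER control 3 or the progenitor Mx1Cre knockout 1 (adjusted p up to 0.0595), and without both LSK CreER knockouts 2 and 3 (adjusted p = 0.0918).

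Control levels differed between the populations as well. In controls of both lines 5 members were higher and 8 lower in LSK cells than in progenitors, where 17.4% of all genes were higher and 17.3% lower. Trp53i11 was 5.88-fold higher in LSK cells (log2 difference 2.56 ± 0.16 SE, adjusted p = 1.3e-12) and Sesn1 1.8-fold higher (0.85 ± 0.10 SE, adjusted p = 2.09e-07), both with no overlap over the 8 and 8 libraries. Perp, Gdf15 and Xpc were also higher in LSK cells. Ccng1 was 1.43-fold lower, Rps27l 1.51-fold, Apaf1, the core of the apoptosome, 1.36-fold and Fas 2.02-fold, and Triap1, Tigar, Ei24 and Aen were lower too. These 8 and 8 libraries pool lines whose levels of Ccng1 and Gdf15 differ, and those groups overlapped. The calls of Aen, Fas, Gdf15, Tigar and Triap1 were each lost without 1 or more single libraries (adjusted p up to 0.121).

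Other genes of the pathway were read from 3 further lists. Of 36 other p53-activated genes, 12 were lower and 5 higher in LSK Mx1Cre than CreER controls and 13 lower and 5 higher in progenitors, with medians of -0.27 and -0.38. Over all genes 9.99% were lower and 11.7% higher in LSK controls, and 11.0% and 14.3% in progenitor controls, with medians of 0 and 0.016. Zfp365, a genome stability gene, was the lowest of those named in both populations, at log2 differences of -4.17 ± 0.45 SE and -5.69 ± 0.49 SE (adjusted p = 7.03e-06 and 1.13e-05). Pml, a nuclear body protein that interferon also induces, was lower in LSK Mx1Cre controls (-1.17 ± 0.14 SE, adjusted p = 1.35e-05), and Ddit4, an mTORC1 inhibitor, in progenitors (-2.02 ± 0.22 SE, adjusted p = 1.94e-05). After HBO1 loss 4 of these 36 were higher and 9 lower in LSK cells and 2 higher and 7 lower in progenitors, where 13.5% and 14.3% of all genes were higher and lower in LSK cells and 2.28% and 5.51% in progenitors. The list's medians were -0.04 and 0.01, against 0.009 and -0.008 over all genes. Arap2, a GTPase-activating protein, was at -1.49 ± 0.13 SE and -2.56 ± 0.22 SE (adjusted p = 3.84e-07 and 4.13e-06). Of 36 tested p53 regulators and family members 6 were lower and 5 higher in LSK and 9 lower and 4 higher in progenitor Mx1Cre controls, with medians of -0.07 and -0.17, beside the shares of all genes given above for these comparisons (9.99% lower and 11.7% higher, 11.0% lower and 14.3% higher). Bcl6, a repressor of Trp53 transcription, was higher (1.32 ± 0.22 SE and 2.19 ± 0.36 SE, adjusted p = 0.000345 and 0.000538), and Daxx, a chaperone that binds MDM2, lower (-0.82 ± 0.12 SE and -0.88 ± 0.11 SE, adjusted p = 0.000173 and 0.000109). Of 18 cell cycle genes that p53 represses through p21 and the DREAM complex, all 18 had a positive Mx1Cre minus CreER difference in the controls of both populations. The medians were 0.25 in LSK and 0.37 in progenitor controls, against 0 and 0.016 over all genes. Of the 18, 2 and 3 passed the test, none lower, where 11.7% and 14.3% of all genes were higher. Kif23 and Ccnb1 passed in both. In LSK knockouts of both lines together, 5 of the 18 were higher than in controls and none lower, where 13.5% of all genes were higher and 14.3% lower, and the list's median was 0.26 against 0.009. In progenitors edgeR called none, with 3 at an unadjusted p below 0.05, where 2.28% of all genes were called higher and 5.51% lower.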

How the data were processed

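RNA from sorted LSK and progenitor cells of 16 mice gave 32 libraries. Paired-end reads of 80 bp were made from 50 ng of RNA, per the labels' protocols. The deposited values are raw counts per gene from featureCounts on mm10, per the submitters' processing notes. The sources used here name no aligner, strand setting or tool version. The 32 single tables hold the same counts as the table of all libraries, and no 2 libraries were identical. The deposited exon lengths were used for RPKM and for the length trend. Symbols were found for 25275 of 27179 gene identifiers, and rows without one hold 3.92% of the counts.

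Tests used edgeR 4.0.16 (R 4.3.3) on TMM-scaled counts that passed its default low-count filter (10 counts, 15 in total). Its quasi-likelihood p-values were adjusted over all genes by the Benjamini-Hochberg method, and adjusted values below 0.05 were called. Each population was fitted on its 16 libraries, and comparisons across populations on all 32. CPM values use TMM factors over the 32 libraries, and n is 4 libraries per group. Of 15 comparisons 12 were planned and 3 added after seeing the data: Mx1Cre against CreER in the knockouts of each population, and the gap between populations. Ratios of summed counts carry 95% exact intervals, which hold counting error and not the spread between mice. The fits were tested on simulated data.

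The members and gene lists were chosen with earlier results of these data known. Every member could be named, as could up to 4 called genes with the lowest p per comparison of each other list, 2 of the cell cycle list, and Kat7. LSK and progenitor libraries are paired by mouse, per the labels, and the deviations of 14 of 16 pairs correlated at over 0.1 (range -0.09 to 0.43). The other 2 pairs, at -0.09 and -0.06, are those of LSK CreER knockouts 2 and 3, whose sex-linked genes go against their labels, so their pairing is in doubt. Alternatives were DESeq2 1.42.0 and its size factors, limma 3.58.1 (voom), other filters, sex, a block, the length trend, fewer groups, and leaving out each library.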

Additional observations from a re-analysis of the deposited data

Results flagged for a closer look

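In groups of 4 libraries, 15 of 272 group values of the members had 1 library far from the other 3, a gap, as a share of the range of the 4, above the 95% critical value of Dixon's test. Chance flags about 1 in 20 groups. The libraries that stood low were the LSK Mx1Cre knockout 1 for Trp53 (187 CPM), the progenitor CreER control 3 for Mdm4 (106 CPM), the LSK Mx1Cre control 3 for Ddb2 (18.6 CPM), the progenitor CreER control 1 for Rrm2b (11.5 CPM), the LSK Mx1Cre control 2 for Tigar (19.5 CPM), the LSK CreER control 4 for Ei24 (70.4 CPM) and the LSK Mx1Cre knockout 2 for Dcxr (7.84 CPM). The libraries that stood high were the LSK Mx1Cre control 4 for Trp53inp1 (54.8 CPM), the LSK Mx1Cre knockout 1 for Tnfrsf10b (6.25 CPM), the progenitor Mx1Cre control 4 for Plk2 (0.652 CPM), the LSK CreER control 4 for Plk3 (9.4 CPM), the progenitor CreER control 4 for Btg2 (23.4 CPM), the LSK CreER knockout 3 for Polk (25.4 CPM), the LSK Mx1Cre knockout 4 for Ak1 (3.36 CPM) and the progenitor Mx1Cre knockout 4 for Triap1 (37.9 CPM).

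Differences between groups that passed their own test (edgeR, adjusted over all genes) came from 3 kinds of contrast. The knockout difference in LSK cells depended on the line for Trp53i11 (1.48, Mx1Cre minus CreER on the log2 scale), Plk2 (-3.54), Rrm2b (-0.78), Zmat3 (-0.93) and Trp53inp1 (-1.23), and in progenitors for Trp53i11 (2.44). The knockout difference depended on the population for Tigar (0.83, LSK minus progenitor). The Mx1Cre minus CreER difference in controls depended on the population for Cdkn1a (1.41), Ccng1 (0.74) and Zmat3 (1.38). Some alternatives lost the calls of Plk2, Zmat3 and Trp53inp1 between LSK lines, of Tigar, and of Cdkn1a and Zmat3 between populations. Those of Trp53i11, Rrm2b and Ccng1 held in every alternative run.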

How the results depend on the processing

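Over 141 gene results and 2775 alternatives to them, 2515 kept their call, 260 lost it and none changed direction. Of the calls between Mx1Cre and CreER controls, 15 of 16 in LSK cells and 19 of 20 in progenitors held under all alternatives run, which included the length trend and, in progenitors, that trend with the Mx1Cre control 1 left out. Leaving out each library in turn gave 15 to 16 and 19 to 21 members there, and 16 to 23 and 19 to 23 in the knockouts. For knockout against control the same step gave 8 to 17 members over both lines in LSK cells, 11 to 18 in LSK Mx1Cre, 0 to 1 in LSK CreER (Sesn1 without the CreER knockout 1) and 3 to 9 for the difference between the LSK lines. In progenitors it gave 3 to 5 over both lines, 3 to 4 in Mx1Cre, 0 in CreER and 1 for the difference between lines. It gave 10 to 15 for LSK against progenitor controls, 0 to 1 for the knockout difference between populations, and 2 to 4 for the control gap between populations. The difference between LSK lines called 8 members with DESeq2, 3 with limma-voom, 3 with the replicate block, 3 with the length trend removed and 2 without both LSK CreER knockouts 2 and 3. In LSK CreER 1 member, Rps27l, was called with the length trend removed. In progenitor CreER 1 member, Sesn1, was called with DESeq2 and 1, Sesn1, with only the compared groups in the fit, which left 2 in progenitor Mx1Cre. Tigar, the member called for the knockout difference between populations, was lost without both LSK CreER knockouts (0 called). The control gap called 5 members with DESeq2 and 5 with the mouse as a replicate block. The cause of these changes was not tested. Control and knockout libraries of the same replicate number share only that number (correlations of -0.28 to 0.43, over 0.1 in 8 of 16 pairs), and as a block it moved no other count by over 1.5 times. Low counts limit Plk2, Eda2r, Gdf15 and Fas. The interval of their ratios holds counting error only and leaves out the spread between mice.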
